A study of Mus musculus with 8 samples.

Results

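The 49 genes described here encode enzymes of glycolysis, the pentose phosphate pathway, pyruvate entry into mitochondria and the tricarboxylic acid (TCA) cycle. They were chosen as a list of gene symbols, by a rule that uses no measured value but with earlier results of these data known, and 49 of 49 symbols were found among the 13676 genes of the results table for PBS and the 14193 genes of the table for IL-4. Aldoa stands on 2 gene identifiers in each table, so the symbols fill 50 entries; ENSMUSG00000030695 was used, and the other, ENSMUSG00000114515, has a base mean of 4.86 with PBS and 4.74 with IL-4 in the authors' deposited tables. RNA was sequenced from bone-marrow-derived macrophages of female mice, 12 weeks old, either wild type (WT) or knocked out for NF-κB-inducing kinase (NIK KO), a kinase of the noncanonical NF-κB pathway. Marrow was grown for 7 days in 30% medium conditioned by L929 fibroblasts, a source of macrophage growth factor, replated in 5%, and given PBS or 20 ng/mL interleukin 4 (IL-4) for 6 hours. The 4 groups, WT with PBS, NIK KO with PBS, WT with IL-4 and NIK KO with IL-4, hold 2 mice each, and cells of the same 4 mice were used for both treatments. The labels name neither the knockout allele nor the strain. The series title names mitochondrial respiratory capacity among its subjects, and the genotypes are compared here at the level of RNA for the enzymes that feed respiration.

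Glycolysis splits a hexose into trioses and oxidises them to pyruvate, which is reduced to lactate in the cytosol or carried into mitochondria and turned into acetyl-CoA. The oxidative pentose phosphate branch draws off glucose 6-phosphate to make NADPH, which macrophages use for the oxidative burst and for keeping glutathione reduced, and the non-oxidative branch exchanges sugars between the pathways. The TCA cycle oxidises acetyl-CoA and supplies the respiratory chain, and IL-4-activated macrophages are known for relying on mitochondrial oxidation more than inflammatory macrophages do.

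Each table gives 1 base mean, the average count after division by size factors over its 4 libraries, and 1 log2 fold change per gene. Mean normalized counts of each group were recovered from them, and overlap between single libraries is not analysed here. Map3k14, the gene of NIK, averaged 425 normalized counts in WT and 902 in the libraries labelled NIK KO with PBS, and 418 against 832 with IL-4. The authors' deposited DESeq2 tables give it log2 fold changes of 1.09 ± 0.28 (adjusted p = 0.176) with PBS and 0.99 ± 0.22 (adjusted p = 0.00782) with IL-4. Total RNA of the targeted gene was thus higher, not lower, in the libraries labelled NIK KO. Whether the allele, which the labels do not name, leaves a transcript is unknown here. Every direction below is that of the libraries labelled NIK KO, and swapped labels would turn every sign. The 10 macrophage markers listed (such as Adgre1, Csf1r and Cd68) are in both tables. With PBS 6 of their entries were higher in NIK KO and 5 lower, and with IL-4 7 and 4, Itgam having a second entry. Adgre1 with IL-4 averaged 29592 normalized counts in WT and 43143 in NIK KO. Its log2 fold change in the authors' deposited DESeq2 table is 0.54 ± 0.18 (p = 0.00320, adjusted p = 0.672). Of lymphocyte markers, Pax5, Cd3e and Cd3d are in neither table, while Cd79b, of B cells, averaged 7.11 normalized counts in WT and 7.42 in NIK KO with PBS and 38.7 and 14.3 with IL-4, and Lck, of T cells, 12.4 and 8.03, then 16.9 and 9.88. Of 10 fibroblast markers 0 were higher in NIK KO with IL-4, where their summed mean was 1039 in WT and 441 in NIK KO. The authors' deposited DESeq2 table for IL-4 calls 1 of them (Col3a1, adjusted p = 0.0107), against 0.12% of all genes. At an unadjusted p under 0.05 stood 6 of 10, against 2.95% of all genes. With PBS 3 of 9 were higher, and the sums were 232 and 206. Of the 6 erythroid markers measured with IL-4, 2 were higher in NIK KO, and the sums were 344 in WT and 158 in NIK KO. With PBS 3 of 5 erythroid markers were higher, and the sums were 96.1 and 103. The part of these cell types in the enzyme values was not tested. In bulk RNA, fewer cells of a type and less RNA per cell cannot be told apart.

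No enzyme gene passed the test between NIK KO and WT macrophages under either treatment. The authors' deposited DESeq2 tables call 0 of the 49 at an adjusted p under 0.05 with PBS, where 0.0366% of all genes were called, and 0 of 49 with IL-4, where 0.12% were. At an unadjusted p under 0.05 the count was 0 of 49 with PBS, against 1.24% of all genes, and 1 of 49 with IL-4, against 2.95%. That gene is Gapdh, glyceraldehyde-3-phosphate dehydrogenase, and it was lower in NIK KO. The smallest adjusted p of an enzyme gene in the authors' deposited DESeq2 tables is 0.999994 with PBS and 0.999963 with IL-4.

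How large a change the data leave room for can be read from the intervals of the fold changes, taken as 1.96 standard errors to each side. With IL-4 the 95% interval lay within 2-fold either way for 48 of 49 enzyme genes, against 92.8% of genes with a base mean of 100 or more, and within 1.5-fold for 38 of 49, against 50.1%. With PBS the counts were 47 of 49 within 2-fold, against 87.3% of such genes, and 17 of 49 within 1.5-fold, against 14.6%. The exceptions at 2-fold were Eno2 and Pcx with PBS and Eno2 with IL-4, genes of low level. These genes are well expressed, with base means from 105 (Eno2) to 58333 (Pkm) with PBS and from 144 to 53379 with IL-4 in the authors' deposited tables, and they hold 1.73% and 1.56% of all normalized counts. The median log2 fold change of the 49 was -0.03 with PBS and -0.04 with IL-4, beside 0.00 and 0.01 for genes of base mean 100 or more. Fold changes were below 0 for 31 of 49 with PBS, against 49.9% of such genes, and for 29 of 49 with IL-4, against 47.2%. The 2 tables gave 27 of 49 genes the same sign and 22 opposite signs, and the share over all genes was not counted.

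**Figure D1:**
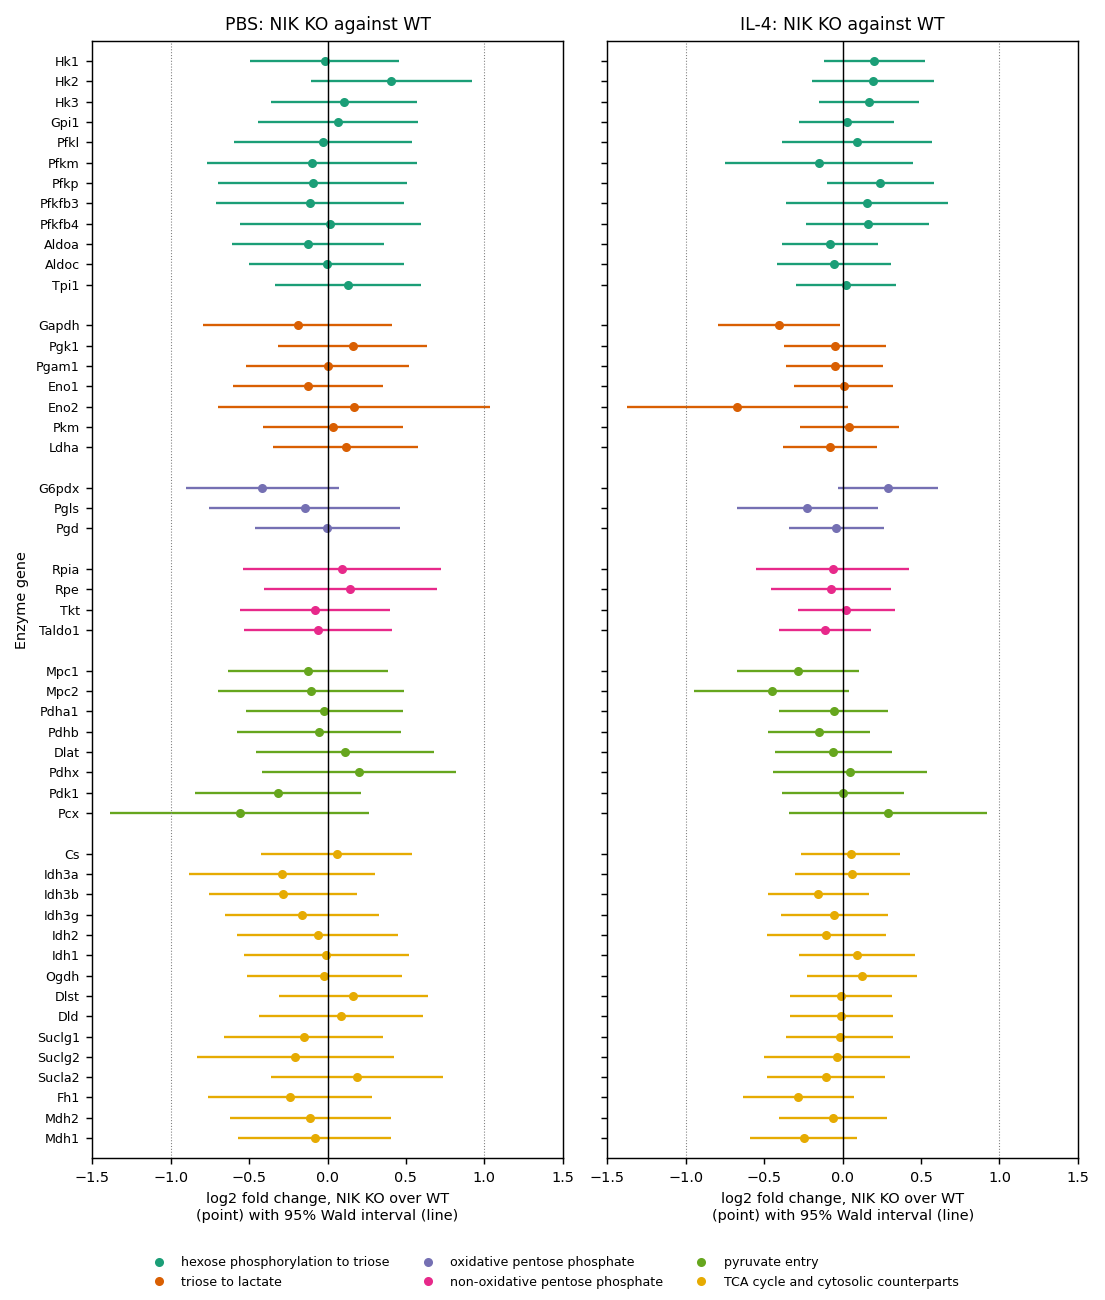
Log2 fold change of NIK KO over WT for the 49 enzyme genes (points) with the 95% Wald interval (lines), with PBS on the left and IL-4 on the right, coloured by step of metabolism; dotted lines mark 2-fold. All intervals cross 0 except that of Gapdh with IL-4, and the intervals are narrower with IL-4 (median standard error 0.18) than with PBS (0.26).

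Among the 12 genes from hexose phosphorylation to triose, 5 had a higher and 7 a lower mean in NIK KO with PBS (median log2 fold change -0.01), and 9 a higher and 3 a lower mean with IL-4 (median 0.12). None passed the test in either direction. Hexokinases trap glucose as glucose 6-phosphate, and Hk2, the inducible, insulin-responsive form, had the largest ratio of the 12 with PBS. Hk2 averaged 742 normalized counts in WT and 983 in NIK KO with PBS, and 1057 against 1209 with IL-4. The authors' deposited tables give it log2 fold changes of 0.41 ± 0.26 (standard error, p = 0.122) with PBS and 0.19 ± 0.20 (p = 0.328) with IL-4. Hk1, the broadly expressed form, averaged 2020 and 1994 with PBS and 2213 and 2546 with IL-4, with log2 fold changes in the authors' deposited tables of -0.02 ± 0.24 (p = 0.938) and 0.20 ± 0.17 (p = 0.221). Hk3, the form found in myeloid cells, averaged 4100 and 4411 with PBS and 4974 and 5597 with IL-4. Its log2 fold changes in the authors' deposited tables are 0.11 ± 0.24 (p = 0.659) and 0.17 ± 0.16 (p = 0.297). All 3 hexokinases thus had a higher mean in NIK KO with IL-4, each by less than 2 standard errors.

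Phosphofructokinase 1 commits fructose 6-phosphate to glycolysis and is built from the liver (Pfkl), muscle (Pfkm) and platelet (Pfkp) subunits. Pfkl averaged 1370 normalized counts in WT and 1342 in NIK KO with PBS, and 1246 and 1326 with IL-4. Pfkm averaged 236 and 220.1 with PBS, and 306 and 275 with IL-4. Pfkp averaged 1753 and 1643 with PBS, and 4023 and 4748 with IL-4. Relative to the median gene of base mean 100 or more, Pfkp with IL-4 was at 1.91 times its level with PBS in WT and at 2.39 times in NIK KO. Its means thus differed more between treatments than between genotypes. The treatments were normalized separately, so that contrast carries no test. For Pfkp the authors' deposited tables give -0.09 ± 0.31 (log2, p = 0.760) with PBS and 0.24 ± 0.17 (p = 0.169) with IL-4. For Pfkl they are -0.03 ± 0.29 (p = 0.918) and 0.09 ± 0.24 (p = 0.712), and for Pfkm -0.10 ± 0.34 (p = 0.770) and -0.15 ± 0.31 (p = 0.619), in the authors' deposited tables. The bifunctional enzymes Pfkfb3 and Pfkfb4 make and remove fructose 2,6-bisphosphate, the activator of phosphofructokinase 1. Pfkfb3 averaged 475 in WT and 439.9 in NIK KO with PBS and 323 and 359.6 with IL-4, while Pfkfb4 averaged 853 and 864 with PBS and 1976 and 2208 with IL-4. Their log2 fold changes in the authors' deposited tables are -0.11 ± 0.31 (p = 0.716) and 0.15 ± 0.26 (p = 0.558) for Pfkfb3, and 0.02 ± 0.29 (p = 0.951) and 0.16 ± 0.20 (p = 0.426) for Pfkfb4.

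Aldolases cleave fructose 1,6-bisphosphate, and triose-phosphate isomerase (Tpi1) interconverts the trioses. Aldoa averaged 22527 normalized counts in WT and 20660 in NIK KO with PBS, and 21157 and 19994 with IL-4. Aldoc averaged 1154 and 1150, then 1188 and 1141, and Tpi1 5234 and 5735, then 5335 and 5410. In the authors' deposited tables the log2 fold changes are -0.12 ± 0.25 (p = 0.616) and -0.08 ± 0.16 (p = 0.603) for Aldoa, -0.01 ± 0.25 (p = 0.983) and -0.06 ± 0.19 (p = 0.757) for Aldoc, and 0.13 ± 0.24 (p = 0.579) and 0.02 ± 0.16 (p = 0.901) for Tpi1. Gpi1, the isomerase between glucose and fructose 6-phosphate, had log2 fold changes of 0.07 and 0.02 in the authors' deposited tables.

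Counts of different genes compare only per transcript length, and isoenzymes were therefore ordered by mean normalized count per kilobase of the longest transcript. On this scale Hk3 held 67.7% of the hexokinase sum in WT and 68.0% in NIK KO with PBS, and 68.5% and 68.1% with IL-4. Hk1 held from 22.9% to 25.1% over the 4 groups and Hk2 from 7.16% to 8.85%, so the makeup of the hexokinases was close in all groups. Phosphofructokinase 1 had another order in each treatment: Pfkl led with PBS, with 56.4% of the sum in WT and 57.5% in NIK KO, and Pfkp led with IL-4, with 51.3% and 54.8%. Pfkfb4 exceeded Pfkfb3 in every group, at 71.2% and 73.0% of their sum with PBS and 89.4% in both genotypes with IL-4. Aldoa held 96.9% to 97.2% of the aldolases and Eno1 99.3% to 99.6% of the enolases. With the transcript of the longest coding sequence in place of the longest transcript, Pfkp led Pfkl in all 4 groups, and with the median transcript length Hk1 led Hk3, so these orders depend on the length used. The fold between treatments of a single gene does not use the length.

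**Figure D2:**
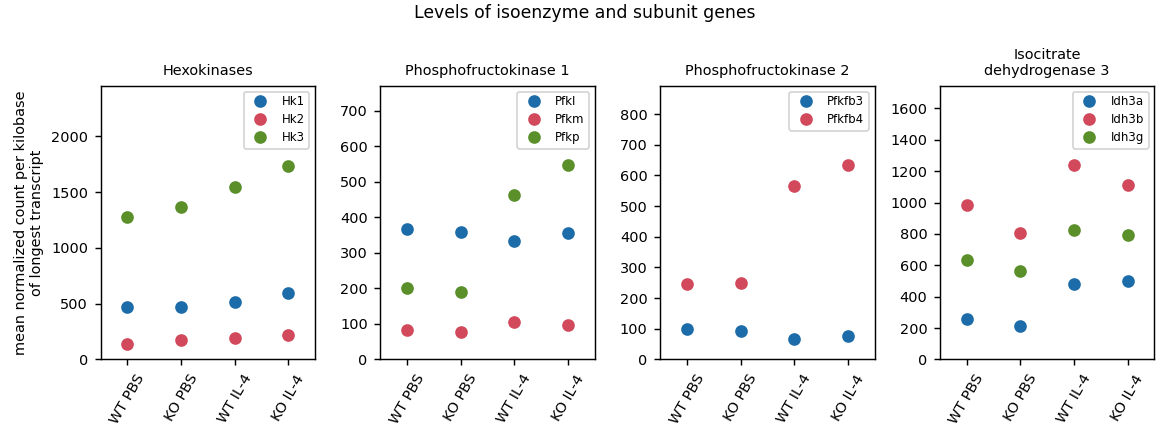
Mean normalized count per kilobase of the longest transcript (vertical axis, from 0) for the hexokinases, phosphofructokinase 1 subunits, phosphofructokinase 2 enzymes and isocitrate dehydrogenase 3 subunits in the 4 groups (horizontal axis), 1 point per gene and group with no error since the tables hold no values per library. Pfkp and Pfkfb4 stand higher with IL-4 than with PBS in both genotypes, and the hexokinases keep their order.

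The 7 genes from triose to lactate include Pkm, the largest count of the 49. Gapdh was the enzyme gene with the smallest deposited p with IL-4, and the mean was lower in NIK KO. It did not pass adjustment. When its copy Gm7336 was added, the log2 ratio went from -0.41 to -0.16 with IL-4 and from -0.19 to -0.23 with PBS. These sums carry no error. Gapdh averaged 19703 normalized counts in WT and 17267 in NIK KO with PBS, and 20964 against 15825 with IL-4. In the authors' deposited tables its log2 fold change is -0.19 ± 0.31 (p = 0.536) with PBS and -0.41 ± 0.20 (p = 0.0422) with IL-4. The ratio with IL-4 was 0.755, with a 95% interval of 0.575 to 0.990.

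Eno2, the enolase of neurons, had the lowest base mean of the 49 genes in both tables. It averaged 99.3 normalized counts in WT and 111 in NIK KO with PBS, and 177 and 111 with IL-4, with log2 fold changes in the authors' deposited tables of 0.17 ± 0.44 (p = 0.705) and -0.67 ± 0.36 (p = 0.0615). Eno1, the enolase of most tissues, averaged 17609 and 16138 with PBS and 17400 and 17488 with IL-4, and the authors' deposited tables give -0.13 ± 0.24 (log2, p = 0.607) and 0.01 ± 0.16 (p = 0.964). Phosphoglycerate kinase (Pgk1), which makes the first ATP of glycolysis, averaged 10637 and 11889 with PBS and 13304 and 12880 with IL-4. Its log2 fold changes in the authors' deposited tables are 0.16 ± 0.24 (p = 0.508) and -0.05 ± 0.17 (p = 0.778). Ldha, the lactate dehydrogenase subunit that favours lactate formation, averaged 12711 and 13788 with PBS and 15543 and 14678 with IL-4, with 0.12 ± 0.24 (log2, p = 0.619) and -0.08 ± 0.15 (p = 0.588) in the authors' deposited tables. Pgam1, phosphoglycerate mutase, and Pkm, pyruvate kinase, had log2 fold changes from -0.05 to 0.04 over the authors' deposited tables. Of these genes, 5 of 7 had a higher mean in NIK KO with PBS and 2 of 7 with IL-4.

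Glycolytic genes have many processed pseudogenes, and a read from a shared stretch cannot be assigned to a single copy. The share of 31-base words in the longest transcript that other genes also hold was 77.2% for Eno1, 68.3% for Pgk1, 50.9% for Pkm, 42.1% for Pgam1, 34.2% for Ldha and for Aldoa, and 30.7% for Gapdh. For Gapdh the reference has 43 genes with over 50% of their words in it, of which 41 are in the PBS table and 36 in the IL-4 table, and 0 of them were called. Together they held 24.6% of the Gapdh sum with PBS and 27.4% with IL-4. Most of this lies in Gm7336, a processed pseudogene on chromosome 7. Gm10359 and Gm12671, next in level with PBS, have identical values of 438 normalized counts in WT and 153 in NIK KO with PBS. Their log2 fold change in the authors' deposited DESeq2 table is -1.51 ± 4.56 (p = 0.740), and neither was measured with IL-4. The 1 called copy among all members is Pgam1-ps2, also on chromosome 7.

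A stretch of coding sequence is shown for Gapdh, Pgam1 and their copies, since it is the same letter for letter in gene and copy. Capitals mark the first 31-base word. Gapdh (GRCm38, chr6:125161715-125166467, minus strand) and Gm7336 (chr7:51746647-51747878, plus strand) are shown from base 79 to 138 of the longest Gapdh coding sequence, and they aligned over 1017 bases with 0 substitutions. Pgam1 (chr19:41911923-41918660, plus strand) and Pgam1-ps2 (chr7:27469771-27470535, minus strand) are shown from base 1 to 60 of the Pgam1 coding sequence and aligned over all 762 bases with 0 substitutions. GRCm38 is not the build of the deposited tables, which is GRCm39.
Gapdh: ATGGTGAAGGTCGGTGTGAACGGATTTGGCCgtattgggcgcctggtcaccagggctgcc
Gm7336: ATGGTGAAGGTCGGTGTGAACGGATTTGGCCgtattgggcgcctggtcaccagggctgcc
Pgam1: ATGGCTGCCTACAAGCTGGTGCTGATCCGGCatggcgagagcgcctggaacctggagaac
Pgam1-ps2: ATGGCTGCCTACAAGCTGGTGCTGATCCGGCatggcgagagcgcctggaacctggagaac

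Gm7336 averaged 5428 normalized counts in WT and 4199 in NIK KO with PBS, and 5207 and 7528 with IL-4. Its log2 fold changes in the authors' deposited tables are -0.37 ± 1.39 (p = 0.789) and 0.53 ± 0.53 (p = 0.319), with wider errors than any of the 49 enzyme genes. Gm7336 held 19.9% of the sum with Gapdh in WT and 32.2% in NIK KO with IL-4, and 21.6% and 19.6% with PBS. The log2 ratio of the sum of Gapdh and Gm7336 was -0.16 with IL-4, where that of Gapdh alone was -0.41, and -0.23 with PBS. With all copies in each table added, it was -0.16 with IL-4 (36 copies) and -0.25 with PBS (41 copies), so the sets of copies differ. Pgam1-ps2 had a mean of 530.2 normalized counts in WT and was at essentially 0 in NIK KO with PBS, while with IL-4 it had a mean of 0.180 in WT and 144 in NIK KO. The authors' deposited DESeq2 table for PBS calls it at an adjusted p of 0.00108, and the table for IL-4 does not (p = 0.0439). The sum of Pgam1 and Pgam1-ps2 had log2 ratios of -0.08 with PBS and -0.03 with IL-4, beside 0.00 and -0.05 for Pgam1 alone.

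**Figure D3:**
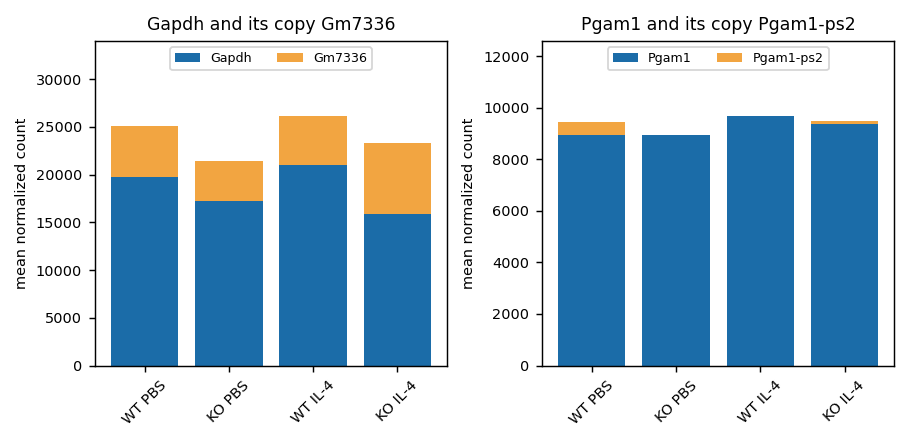
Mean normalized counts (vertical axis, from 0) of Gapdh with its copy Gm7336 and of Pgam1 with its copy Pgam1-ps2, stacked, in the 4 groups (horizontal axis). Gm7336 takes the largest share of its bar in NIK KO with IL-4 (32.2%), where Gapdh itself is lowest, and Pgam1-ps2 is visible in WT with PBS and NIK KO with IL-4 only.

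The oxidative pentose phosphate branch has 3 enzymes: glucose-6-phosphate dehydrogenase (G6pdx), which makes the first NADPH and sets the flow, 6-phosphogluconolactonase (Pgls) and 6-phosphogluconate dehydrogenase (Pgd), which makes the next NADPH. None passed the test between genotypes, and G6pdx had the largest change of ratio between treatments relative to its error. G6pdx averaged 5415 normalized counts in WT and 4061 in NIK KO with PBS, a ratio of 0.750 with a 95% interval of 0.535 to 1.05. With IL-4 it averaged 4713 in WT and 5764 in NIK KO, a ratio of 1.22 with an interval of 0.980 to 1.53. The authors' deposited tables give log2 fold changes of -0.42 ± 0.25 (p = 0.0945) and 0.29 ± 0.16 (p = 0.0749). The NIK KO effect on G6pdx was thus higher with IL-4 than with PBS by 0.71 ± 0.30 on the log2 scale (two-sided z test on the DESeq2 fold changes). It did not pass Benjamini-Hochberg adjustment over 13384 genes (adjusted p = 0.99988, from 0.0175 before adjustment). At an adjusted p under 0.05 this test called 0 of 49 enzyme genes and 0.0149% of all genes, and G6pdx was the 1 of 49 under an unadjusted 0.05, against 0.867% of all genes. Read the other way, G6pdx with IL-4 was, as deposited, at 0.870 times its level with PBS in WT and at 1.42 times in NIK KO. The treatments were normalized separately, and the median gene of base mean 100 or more stood at 1.20 and 1.21 times. Relative to it, G6pdx was at 0.724 times in WT and 1.17 times in NIK KO, with no test.

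Pgd had nearly equal means in the genotypes: it averaged 15303 and 15289 normalized counts with PBS and 10755 and 10458 with IL-4. The authors' deposited tables give Pgd -0.00 ± 0.24 (log2, p = 0.996) and -0.04 ± 0.15 (p = 0.793). Pgls averaged 796 and 719 with PBS and 772 and 660.4 with IL-4, with -0.15 ± 0.31 (log2, p = 0.638) and -0.23 ± 0.23 (p = 0.325) in the authors' deposited tables. In the non-oxidative branch, transketolase (Tkt) and transaldolase (Taldo1) move carbon units between sugars, and Rpia and Rpe interconvert the pentose phosphates. Tkt averaged 6784 and 6413 with PBS and 7852 and 7979 with IL-4, and Taldo1 12723 and 12194, then 10717 and 9911. Rpia averaged 288 and 307, then 358 and 343, and Rpe 616 and 681, then 841 and 799. Their log2 fold changes in the authors' deposited tables are within 0.15 of 0: -0.08 ± 0.24 (p = 0.740) and 0.02 ± 0.16 (p = 0.884) for Tkt, and -0.06 ± 0.24 (p = 0.800) and -0.11 ± 0.15 (p = 0.450) for Taldo1. For Rpia they are 0.09 ± 0.32 (p = 0.777) and -0.06 ± 0.25 (p = 0.796), and for Rpe 0.15 ± 0.28 (p = 0.607) and -0.07 ± 0.20 (p = 0.709), in the authors' deposited tables.

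The 8 genes of pyruvate entry encode the mitochondrial pyruvate carrier (Mpc1, Mpc2), the pyruvate dehydrogenase complex (Pdha1, Pdhb, Dlat, Pdhx), its inhibitory kinase Pdk1 and pyruvate carboxylase (Pcx), which refills the TCA cycle. None passed the test. Both carrier genes had lower means in NIK KO with IL-4, each by less than 2 standard errors. Mpc2 averaged 563 normalized counts in WT and 411 in NIK KO with IL-4, and 529 and 492 with PBS, and the authors' deposited tables give -0.45 ± 0.25 (log2, p = 0.0724) with IL-4 and -0.10 ± 0.30 (p = 0.732) with PBS. Mpc1 averaged 897 and 736 with IL-4 and 833 and 764 with PBS, with -0.28 ± 0.20 (log2, p = 0.150) and -0.12 ± 0.26 (p = 0.632) in the authors' deposited tables.

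Pcx had the lowest ratio of the 49 genes with PBS and a ratio above 1 with IL-4, on low counts. It averaged 159 normalized counts in WT and 108 in NIK KO with PBS, and 168 and 205 with IL-4, and the authors' deposited tables give -0.56 ± 0.42 (log2, p = 0.185) and 0.29 ± 0.32 (p = 0.368). The change between treatments was 0.85 ± 0.53 on the log2 scale (z test on the DESeq2 fold changes, adjusted p = 0.99988, from 0.109 before adjustment). Pdk1 averaged 782 and 628 with PBS and 772 and 773 with IL-4, with -0.32 ± 0.27 (log2, p = 0.240) and 0.00 ± 0.20 (p = 0.989) in the authors' deposited tables. Of the complex itself, Pdhb averaged 1316 and 1268 with PBS and 1995 and 1796 with IL-4, and Pdhx 257 and 296, then 341 and 352. The authors' deposited tables give Pdhb -0.05 ± 0.27 (log2, p = 0.840) and -0.15 ± 0.17 (p = 0.364), and Pdhx 0.20 ± 0.32 (p = 0.523) and 0.05 ± 0.25 (p = 0.846). Pdha1 and Dlat, the other subunits listed, had log2 fold changes from -0.06 to 0.11 in the authors' deposited tables.

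The 15 genes of the TCA cycle and its cytosolic counterparts had a median log2 fold change of -0.08 with PBS and -0.03 with IL-4, with 4 higher and 11 lower in NIK KO in each table, and none passed the test. Isocitrate dehydrogenase 3, the NAD-linked enzyme of the cycle, has 1 catalytic (Idh3a) and 2 other subunits (Idh3b, Idh3g), and all 3 had lower means in NIK KO with PBS. Idh3a averaged 667 and 545 normalized counts in WT and NIK KO with PBS, and 1237 and 1292 with IL-4. Idh3b averaged 2016 and 1656, then 2543 and 2285, and Idh3g 1318 and 1176, then 1716 and 1653. In the authors' deposited tables the log2 fold changes are -0.29 ± 0.30 (p = 0.336) and 0.06 ± 0.19 (p = 0.736) for Idh3a, -0.28 ± 0.24 (p = 0.241) and -0.15 ± 0.17 (p = 0.350) for Idh3b, and -0.16 ± 0.25 (p = 0.512) and -0.05 ± 0.17 (p = 0.754) for Idh3g. The NADP-linked enzymes are Idh2 in mitochondria and Idh1 in the cytosol. Idh2 averaged 759 and 726, then 987 and 918, and Idh1 6427 and 6392, then 8055 and 8570. The authors' deposited tables give -0.06 ± 0.26 (log2, p = 0.807) and -0.10 ± 0.19 (p = 0.590) for Idh2, and -0.01 ± 0.27 (p = 0.977) and 0.09 ± 0.19 (p = 0.636) for Idh1. Per kilobase, Idh1 held 86.4% to 87.9% of their sum in the 4 groups.

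Fumarase (Fh1) had the smallest p of the cycle with IL-4. It averaged 1365 normalized counts in WT and 1123 in NIK KO with IL-4, and 773 and 656 with PBS, a ratio of 0.822 and 0.848. The authors' deposited tables give Fh1 -0.28 ± 0.18 (log2, p = 0.116) with IL-4 and -0.24 ± 0.27 (p = 0.373) with PBS. Malate dehydrogenase, the next step, has a mitochondrial form (Mdh2) and a cytosolic form (Mdh1), which takes part in the malate-aspartate shuttle. Mdh1 averaged 2605 and 2192 with IL-4 and 2189 and 2066 with PBS, and Mdh2 2936 and 2815, then 2199 and 2040. In the authors' deposited tables the log2 fold changes with IL-4 and with PBS are -0.25 ± 0.17 (p = 0.153) and -0.08 ± 0.25 (p = 0.740) for Mdh1, and -0.06 ± 0.18 (p = 0.731) and -0.11 ± 0.26 (p = 0.679) for Mdh2. Succinate-CoA ligase pairs Suclg1 with an ADP-linked (Sucla2) or GDP-linked (Suclg2) subunit. Suclg1 averaged 871 and 784 with PBS and 1424 and 1406 with IL-4, Sucla2 804 and 916, then 1191 and 1109, and Suclg2 298 and 258, then 403 and 393. The authors' deposited tables give -0.15 ± 0.26 (log2, p = 0.553) and -0.02 ± 0.17 (p = 0.916) for Suclg1 and 0.19 ± 0.28 (p = 0.504) and -0.10 ± 0.19 (p = 0.589) for Sucla2. For Suclg2 they are -0.21 ± 0.32 (p = 0.520) and -0.03 ± 0.24 (p = 0.887) in the authors' deposited tables. Citrate synthase (Cs) and the 2-oxoglutarate dehydrogenase genes (Ogdh, Dlst, Dld) had log2 fold changes from -0.02 to 0.16 in the authors' deposited tables.

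A few of these genes differed in level between IL-4 and PBS in both genotypes, in shares near those of all genes. The tables were normalized separately, so levels with IL-4 over PBS carry no test and are given relative to the median gene of base mean 100 or more, whose ratio was 1.20 in WT and 1.21 in NIK KO (0.26 and 0.28 on the log2 scale). As a check on the treatment, 10 of 10 genes known to be raised by IL-4 in macrophages were higher, with ratios as deposited of 268 in WT and 413 in NIK KO for Arg1 and of 17.1 and 17.5 for Mrc1. Of the 49 enzyme genes, 3 were past 1.5-fold higher relative to the median gene in both genotypes (Pfkp, Pfkfb4 and Idh3a), against 4.51% of genes, and 1 was past 1.5-fold lower (Pgd), against 4.97%. Without the rescaling, 5 genes were past 1.5-fold higher, Suclg1 and Fh1 in addition, and 0 lower. The share of all genes past that unscaled cut was not counted. Of 9148 genes of base mean 100 or more, 7277 in WT and 7093 in NIK KO were higher with IL-4 before rescaling. The log2 level relative to the median gene was higher with IL-4 for Pfkp by 0.93 in WT and 1.26 in NIK KO, for Pfkfb4 by 0.95 and 1.08, and for Idh3a by 0.63 and 0.97. It was -0.77 in WT and -0.82 in NIK KO for Pgd, -0.51 and -0.57 for Taldo1, -0.82 and -0.57 for Pfkfb3, and -0.40 in both for Pkm. The other kinase genes of fructose 6-phosphate, Pfkl and Pfkm, were at -0.40 and 0.11 in WT, so the genes of 1 step did not move together.

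By step, the TCA genes stood on the higher side. Relative to the median gene, 14 of 15 were higher with IL-4 in WT and 13 of 15 in NIK KO (medians 0.17 and 0.19), and Mdh1 was lower in both. Leaving out the cytosolic Idh1 and Mdh1, it was 13 of 13 and 12 of 13, with Sucla2 at 0.00 in NIK KO. Suclg1 stood at 0.44 and 0.57 and Fh1 at 0.55 and 0.50. The pyruvate dehydrogenase complex with its Dld subunit had medians of 0.34 in WT and 0.16 in NIK KO, with 5 of 5 and 4 of 5 higher. From triose to lactate, 3 of 7 genes were higher in WT and 0 of 7 in NIK KO (medians -0.15 and -0.21). The central range of all genes, from the lower to the upper quartile, was -0.21 to 0.19 in WT and -0.24 to 0.23 in NIK KO. Over all 49 genes, 22 were above the median gene in both genotypes and 15 below in both, against 37.4% of genes for each. Across the 49 genes the log2 ratios of WT and NIK KO had a Pearson r of 0.79, given as a description, since the genes share libraries and scaling. The genes that parted most were G6pdx (-0.47 in WT, 0.23 in NIK KO), Pcx (-0.19 and 0.65) and Eno2 (0.57 and -0.28). Fibroblast markers had a median of 1.58 in WT and 0.78 in NIK KO over the 9 genes in both tables, with Lum below 0 in both genotypes, and their part in these shifts was not tested.

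**Figure D4:**
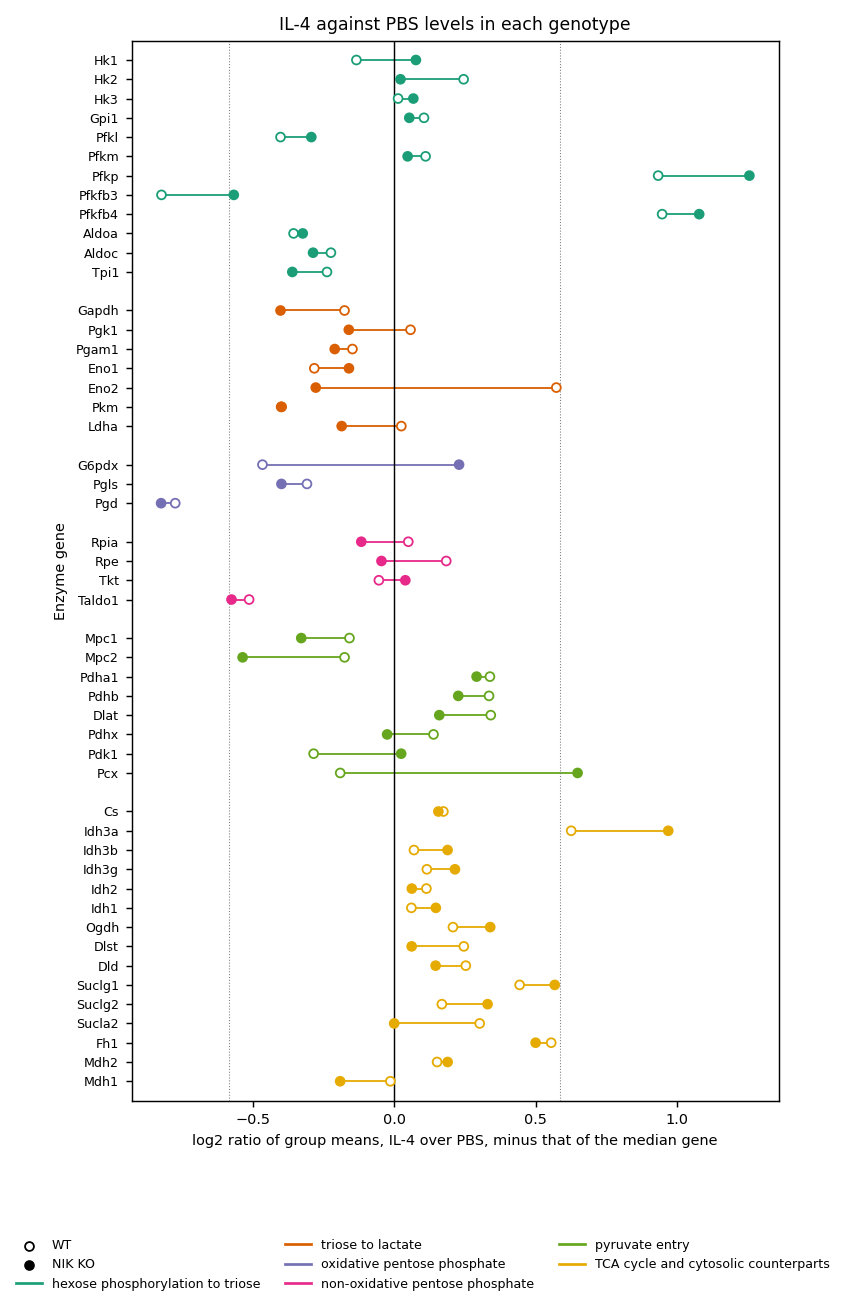
Log2 ratio of mean normalized counts, IL-4 over PBS, minus that of the median gene (horizontal axis) for the 49 enzyme genes, open for WT and filled for NIK KO, with a line joining the genotypes and dotted lines at 1.5-fold. Pfkp, Pfkfb4 and Idh3a lie past the upper line and Pgd past the lower one in both genotypes, and G6pdx, Pcx and Eno2 have the longest lines.

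The promoters shown are those of the genes past 1.5-fold relative to the median gene in both genotypes. They are the 250 bases before the RefSeq start (GRCm38.p6), 5′ to 3′ on the strand of the gene, and Idh3a had no entry (48 of 49 genes matched). Pfkp lies at chr13:6648772-6649021 on the minus strand, Pfkfb4 at chr9:108991652-108991901 on the plus strand and Pgd, the first of its 2 windows, at chr4:149166706-149166955 on the minus strand. Capitals mark matches to ACGTG or GCGTG, the core that hypoxia-inducible factors bind, searched on both strands.
Pfkp: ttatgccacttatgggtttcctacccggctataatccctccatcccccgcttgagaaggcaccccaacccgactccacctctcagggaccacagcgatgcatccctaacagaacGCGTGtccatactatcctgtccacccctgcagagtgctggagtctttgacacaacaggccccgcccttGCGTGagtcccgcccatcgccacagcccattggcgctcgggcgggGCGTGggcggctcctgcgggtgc
Pfkfb4: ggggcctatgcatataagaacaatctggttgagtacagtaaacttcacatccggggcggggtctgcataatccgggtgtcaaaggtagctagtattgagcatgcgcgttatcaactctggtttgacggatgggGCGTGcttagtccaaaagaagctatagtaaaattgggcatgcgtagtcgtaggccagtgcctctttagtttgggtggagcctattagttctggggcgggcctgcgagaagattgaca
Pgd: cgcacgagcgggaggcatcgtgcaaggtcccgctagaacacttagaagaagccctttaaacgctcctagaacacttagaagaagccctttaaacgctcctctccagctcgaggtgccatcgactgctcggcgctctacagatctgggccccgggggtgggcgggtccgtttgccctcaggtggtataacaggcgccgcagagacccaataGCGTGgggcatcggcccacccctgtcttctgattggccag

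Pfkp holds 3 matches, Pfkfb4 1 and Pgd 1, all of them GCGTG. Over all enzyme genes, 37 of 48 (77.1%) hold a match in at least 1 window, against 41.5% of the 27025 genes in the RefSeq table, and 71.4% of their 70 windows against 38.6% of 32851. The windows of enzyme genes are also richer in G and C, at a median of 60.4% against 52.4%, and the part of base composition in the count was not tested. TTCNNNNGAA, the spacing preferred by STAT6, the transcription factor downstream of IL-4, is found in 0 of the 3 windows shown, in the other window of Pgd, and in 8.57% of enzyme windows, against 5.85% of all. A match is only a run of letters and says nothing of binding.

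Of the other genes of these pathways, the authors' deposited DESeq2 tables call 0 in either direction. Of glucose and lactate transporters, 8 were measured with PBS and 9 with IL-4 (median log2 fold change -0.10 and 0.03). Of other glycolytic and gluconeogenic enzymes, 16 and 17 were measured (medians -0.07 and -0.06), of other pentose phosphate enzymes 7 and 7 (-0.16 and -0.06) and of regulators of pyruvate dehydrogenase 8 and 8 (0.04 and 0.18). Of other TCA and anaplerotic enzymes, such as aconitase and succinate dehydrogenase, 25 were measured in each table (medians 0.00 and 0.07), of the glycogen and hexosamine branch 12 (0.08 and 0.00), and of transcriptional regulators such as Hif1a and Myc 20 (0.08 and -0.01). At an unadjusted p under 0.05 stood only Hkdc1, a hexokinase-like gene, with IL-4, against 2.95% of all genes there and 1.24% with PBS. Hkdc1 averaged 11.0 normalized counts in WT and 0.503 in NIK KO (-4.45 ± 2.10 on the log2 scale, p = 0.0340 in the authors' deposited table). These counts are low, and Hkdc1 was not measured with PBS. Chil3, 1 of the 10 genes of the IL-4 check, averaged 2293 in WT and 1699 in NIK KO with IL-4 (-0.43 ± 0.18 on the log2 scale, p = 0.0139 in the authors' deposited table).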

How the data were processed

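Libraries of 8 macrophage cultures (2 mice in each of 4 groups) were compared through 2 tables of per-gene results, 1 per treatment. The submitters' processing notes name Salmon 1.4.0, DESeq2 1.32.0 and build GRCm39, and the sources used here give no annotation or filter. The columns deposited by the authors, per the file headers, are a base mean (a signal: counts over size factors, averaged over 4 libraries), a log2 fold change with its standard error, the Wald statistic (a score), and the p-value and adjusted p-value. Depth per library is unknown here, so precision is given by the standard errors. The deposited p-values are those of the Wald test with 2 mice a group.

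The direction, NIK KO over WT, follows the IL-4 table's name. WT means were computed as the base mean times 2, divided by 1 plus the fold. Changes between treatments were tested as the difference of log2 fold changes over the root of summed squared errors (normal, two-sided, Benjamini-Hochberg over 13384 genes), with errors treated as independent although mice are shared. The steps were also run on simulated data of 13384 genes with known changes, drawn as independent normal values with the deposited standard errors. Such draws follow the assumptions of the test, so they check the arithmetic and not the power with shared mice. Transcripts were those of GENCODE M21 (GRCm38), promoters those of RefSeq (GRCm38.p6). Genes given with full values were those with a deposited p under 0.05, the 3 of smallest p in each step and table, and all isoenzymes. The members and lists were chosen with earlier results of these data known. Alternatives covered the set of genes for adjustment, centring, trends on length and level, copies, correlated errors, scaling and transcript length. Python 3.11.15, pandas 2.3.3, statsmodels 0.14.6, Biopython 1.88 and matplotlib 3.10.9 were used.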

Additional observations from a re-analysis of the deposited data

Results flagged for a closer look

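For Pgam1-ps2, the processed copy of Pgam1, the log2 fold change with IL-4 minus that with PBS was 34.37 ± 6.77. The z test on the DESeq2 fold changes gave an adjusted p of 0.00254 over 13384 genes. The log2 fold changes themselves were -24.73 ± 4.78 with PBS and 9.64 ± 4.79 with IL-4. The size of the difference is set by group means at or close to 0, in NIK KO with PBS and in WT with IL-4. It is no measure of fold. Of the sequence words of Pgam1-ps2, 100% also lie in Pgam1, so its counts depend on how reads were assigned between gene and copy. The part of read assignment, or of a single library, in this difference was not tested. Pgam1 itself differed by -0.05 ± 0.31 (adjusted p = 0.99988).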

How the results depend on the processing

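The counts of called enzyme genes stayed at 0 of 49 in both tables and in the test of their difference under every setting run, among them adjustment over genes of base mean 10 or 100 or more, a threshold of 0.1, centring on the median gene and trends on transcript length or base mean removed. Removing the trend on length turned the sign of 2 fold changes with PBS and 6 with IL-4. If the errors of the 2 tables were correlated at 0.5, as shared mice could make them, 3 enzyme genes in place of 1 had an unadjusted p under 0.05 in the difference, and the smallest adjusted p was 0.332. Rescaling to the median gene or dividing by the summed base mean gave 3 genes past 1.5-fold higher with IL-4 in place of 5, and 1 lower in place of 0. With the median transcript length, 5 of 9 isoenzyme families kept the order given by the longest transcript. With the transcript of the longest coding sequence, chosen after seeing the data, 7 of 9 did. Among single genes, Gapdh with IL-4 moved to -0.16 when summed with its copies. No paired analysis was possible because the tables hold no values per library, and leaving out a mouse was not run for the same reason. A p that misses the threshold does not show that the genotypes are alike. The intervals give the size of change that remains possible, provided that the standard errors hold.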
